A study of Mus musculus with 19 samples.

Results

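Gdf15 encodes growth differentiation factor 15, a secreted stress cytokine, and its transcript was followed here in the lungs of 18 male MutaMouse (a transgenic mutation reporter strain on a BALB/C-DBA/2 background) of about 12 weeks of age. All mice were gavaged daily for 28 days and their lungs were taken 72 hours after the last dose. The vehicle group D0 (mice 1, 2, 3, 4 and 5) received olive oil, and groups D1 (mice 21, 22, 24 and 25), D2 (mice 23, 26, 28, 29 and 30) and D3 (mice 31, 32, 34 and 35) received 8 polycyclic aromatic hydrocarbons, mixed in the same oil, at 15, 30 and 60 mg benzo(a)pyrene (BaP) equivalents/kg-day. Gdf15 was represented by 1 probe, made for transcript NM_011819, among 55681 probes on the array, and was 1 of 20660 gene symbols matched. It was selected on the log2 ratios measured in these same mice, in which it changed most with dose, so its levels and differences are a description with no test, as are those of Cdkn1a and Cyp1a1, which were chosen with it. Of the 55681 probes, 31090 passed the detection filter and entered the tests, and they carried 14754 gene symbols, Gdf15 included.

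GDF15 is a distant member of the transforming growth factor beta (TGF-beta) superfamily. It is made as a precursor, cut by furin-like proteases and secreted, is low in most healthy tissues, and is known to be induced by tissue injury, by the DNA damage response factor p53 and by the factors ATF4 and CHOP of the integrated stress response. The circulating protein acts on the brainstem receptor GFRAL with its co-receptor RET and reduces food intake. Polycyclic aromatic hydrocarbons bind the aryl hydrocarbon receptor (AHR), which induces enzymes such as CYP1A1. These enzymes convert the hydrocarbons to forms that bind DNA, and the damage activates p53 and its targets, among them Cdkn1a, the gene of the cell cycle inhibitor p21.

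The windows from 250 bases before to 50 bases after the annotated starts of the 3 genes are shown because the sections below set Gdf15 beside a p53 target and an AHR target. The sequences are those of RefSeq on the mouse build GRCm38.p6, written 5′ to 3′ on the strand of the gene, with matches to 3 searched motifs in capitals. The motifs, searched on both strands, were the consensus p53 half-site, the AHR element core GCGTG and the core TGATGNAA of the element bound by ATF4 with its partners.
Gdf15, chr8:70632407-70632706, minus strand: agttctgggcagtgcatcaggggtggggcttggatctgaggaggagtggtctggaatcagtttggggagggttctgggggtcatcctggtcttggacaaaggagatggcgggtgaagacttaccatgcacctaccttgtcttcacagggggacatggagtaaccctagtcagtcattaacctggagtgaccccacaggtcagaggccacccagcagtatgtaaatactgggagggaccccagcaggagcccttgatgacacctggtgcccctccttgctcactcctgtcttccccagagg
Cdkn1a, chr17:29090729-29091028, plus strand: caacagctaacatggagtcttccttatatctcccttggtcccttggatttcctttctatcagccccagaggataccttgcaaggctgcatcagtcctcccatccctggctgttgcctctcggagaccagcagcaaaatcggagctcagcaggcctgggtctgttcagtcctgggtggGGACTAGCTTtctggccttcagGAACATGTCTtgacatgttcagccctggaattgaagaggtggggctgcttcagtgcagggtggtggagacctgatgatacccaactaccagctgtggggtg
Cyp1a1, chr9:57697363-57697662, plus strand: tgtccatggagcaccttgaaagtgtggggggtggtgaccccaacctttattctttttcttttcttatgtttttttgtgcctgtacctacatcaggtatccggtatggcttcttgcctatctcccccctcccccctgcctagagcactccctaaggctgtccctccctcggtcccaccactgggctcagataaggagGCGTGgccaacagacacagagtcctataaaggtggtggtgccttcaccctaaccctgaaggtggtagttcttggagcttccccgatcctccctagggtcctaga
The Gdf15 window held 0 matches to the 3 motifs, and the window of the second annotated Gdf15 start, chr8:70632046-70632345, also held 0. The Cdkn1a window held 2 p53 half-sites, at -73 and -51 counted from the first transcribed base as 0. The window of the second annotated Cdkn1a start, chr17:29093519-29093818, held 0 p53 half-sites and 1 AHR element core, at -206. The Cyp1a1 window held 1 AHR element core, at -54. Of 32851 windows of the same length, 8.36% held a p53 half-site, 32.4% the AHR element core and 3.97% the ATF4 element core, so a match or its absence describes only the letters of these windows.

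The 19 arrays (mouse 35 was hybridised on 2, which were averaged) lay on 3 slides, each of which held all 4 dose groups. Dose followed the position on the slide: column 1 of every slide held D0 and columns 2, 3 and 4 held D1, D2 and D3, so that the column and the dose cannot be told apart. Between 54.5 and 64.7% of spots per array were well above background in the lung channel. Mouse 23 was labelled D2, although its number lies among those of D1 and the study's methods give 5 mice for the low and 4 for the middle dose. It was kept in D2, and values without it are given where they differ.

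Gdf15 was the most increased of the 31090 tested probes at D1 and D3 and the second at D2. Its level is given as the log2 ratio of lung RNA (red, Cy5) over a universal mouse reference RNA made from 11 mouse cell lines (green, Cy3), so a value of 0 is the level of the reference. In D0 the ratio was -2.22, -2.02, -2.44, -2.42 and -2.19 in mice 1 to 5, below the reference in every vehicle mouse. In D1 it was 0.16, 0.71, 0.84 and 0.59 in mice 21, 22, 24 and 25. In D2 it was -0.35, 0.62, 0.91, 0.39 and 0.19 in mice 23, 26, 28, 29 and 30. In D3 it was 1.37, 1.48, 1.33 and 1.54 in mice 31, 32, 34 and 35. Every treated mouse lay above every vehicle mouse, by a gap of at least 1.67 on the log2 scale. The D1 and D2 mice overlapped, and all 4 D3 mice lay above all of them, with 0.42 between the lowest D3 and the highest D2 mouse.

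**Figure D1:**
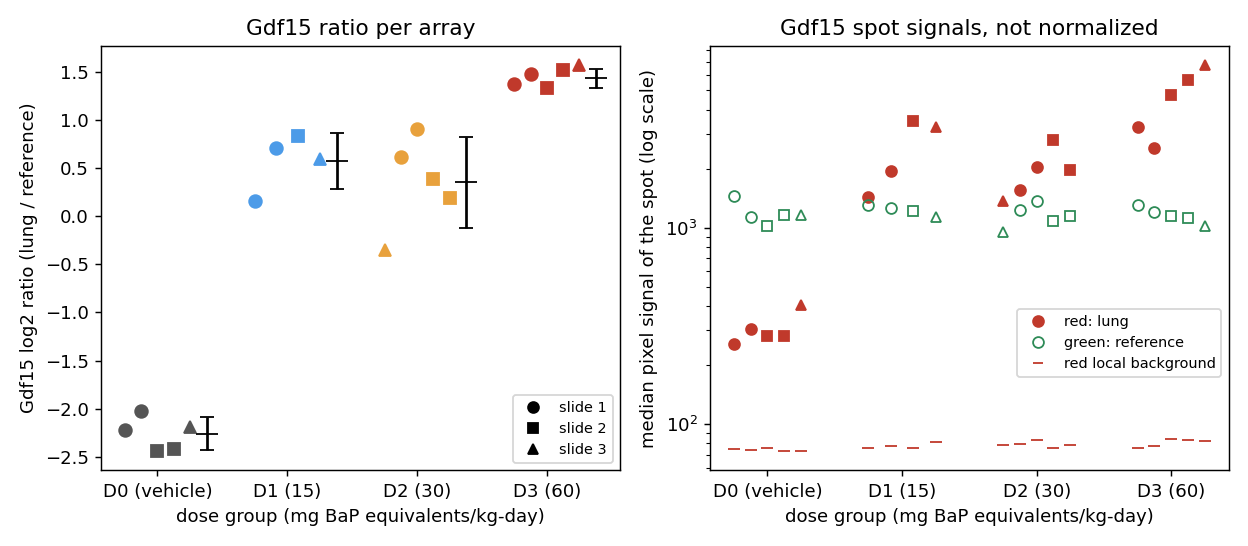
Left, the Gdf15 log2 ratio of lung over reference RNA on each of 19 arrays by dose group, with the slide as the marker and the mean ± SD over mice beside each group. D0 lies between -2.44 and -2.02, D1 and D2 overlap, and D3 lies highest with the narrowest spread. Right, the red (lung) and green (reference) signals of the same spots before normalization on a log axis, with the red local background as dashes. The red signal rises from D0 to the dosed groups while the green signal stays between 946 and 1458.

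The group means were -2.26 ± 0.17 (SD, n = 5) in D0, 0.57 ± 0.29 (SD, n = 4) in D1, 0.35 ± 0.47 (SD, n = 5) in D2 and 1.43 ± 0.10 (SD, n = 4) in D3. Against D0, the log2 difference was 2.83 ± 0.18 (SE, limma) at D1, a 7.12-fold higher level, 2.61 ± 0.17 at D2 (6.10-fold) and 3.69 ± 0.18 at D3 (12.9-fold). The step from vehicle to the low dose was therefore 76.8% of the D3 difference on the log2 scale. D2 differed from D1 by -0.22 ± 0.18, which was close to its SE, and D3 lay 1.08 ± 0.18 above D2 (2.12-fold) and 0.86 ± 0.19 above D1 (1.81-fold). In bulk lung, more cells that express Gdf15 and more Gdf15 RNA per cell cannot be told apart.

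Mouse 23 was the lowest of the 13 treated mice. Without it the D2 difference from D0 was 2.78 and the D2 difference from D1 -0.05, and with it counted in D1 the latter was 0.14, so the order of D1 and D2 turned with the group given to this mouse. D0 lay below both and D3 above both in either case.

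The spread of Gdf15 within dose groups was large for this array. Its residual SD of 0.31 on the log2 scale was above that of 93.6% of the tested probes, whose median was 0.15. The D2 group, with mouse 23, was the most spread and D3 the least. On the 2 arrays of mouse 35, which lay on different slides, the Gdf15 ratio was 1.52 and 1.57.

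The change lay in the lung channel. The Gdf15 spot read 256 to 403 units in red on the D0 arrays, against a local background of 73 to 84 on all arrays. It read 1429 to 3506 on the D1, 1368 to 2802 on the D2 and 2538 to 6723 on the D3 arrays, so the weakest treated array (1368) lay above the strongest vehicle array (403) before any normalization. The green signal of the reference was 946 to 1458 across all 19 arrays. The spot was well above background in both channels on every array, was never marked as an outlier and was not saturated. Within slides 1, 2 and 3 the D3 difference from D0 was 3.55, 3.85 and 3.76, and the D1 difference 2.56, 3.26 and 2.78. The D2 difference was 2.88 and 2.72 on slides 1 and 2, and 1.84 on slide 3, where mouse 23 was the D2 animal.

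Cdkn1a, like Gdf15, was lowest in D0 and highest in D3, at smaller differences from D0. Its log2 ratio was -1.05, -0.66, -0.97, -0.93 and -0.56 in D0 mice 1 to 5, and 0.72, 1.04, 1.504 and 1.20 in D1 mice 21, 22, 24 and 25. It was 0.75, 1.15, 1.41, 1.36 and 0.95 in D2 mice 23, 26, 28, 29 and 30, and 2.17, 2.26, 2.25 and 2.46 in D3 mice 31, 32, 34 and 35. Every D0 mouse lay below and every D3 mouse above all others, and D1 and D2 overlapped. The difference from D0 was 1.95 ± 0.15 (SE) at D1, 1.96 ± 0.14 at D2 and 3.12 ± 0.15 at D3. D1 reached 62.5% of the D3 difference, against 76.8% for Gdf15. A second Cdkn1a probe, for transcript NM_001111099, gave 2.23, 2.10 and 3.08.

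Cyp1a1 varied more between mice than Gdf15 did in D1, D2 and D3, and slightly less in D0 (SD 0.15 and 0.17). Its log2 ratio was 0.91, 0.99, 0.66, 0.89 and 0.69 in D0 mice 1 to 5, and 2.48, 1.54, 4.01 and 0.43 in D1 mice 21, 22, 24 and 25. It was 2.98, 4.67, 2.99, 4.25 and 4.05 in D2 mice 23, 26, 28, 29 and 30, and 6.18, 3.30, 5.03 and 3.24 in D3 mice 31, 32, 34 and 35. Mouse 25 of D1 lay below every vehicle mouse in Cyp1a1, while its Gdf15 ratio of 0.59 was within the range of its group. D1, D2 and D3 overlapped one another, and the differences from D0 were 1.29 ± 0.61, 2.96 ± 0.57 and 3.61 ± 0.61 (SE). D1 stood at 35.6% of the D3 difference of Cyp1a1, a share that rested on single mice. It was 18.1% without mouse 24 of D1, with a D1 difference of 0.65, and 51.2% without mouse 25, with a D1 difference of 1.85. The residual SD of Cyp1a1 was 1.05, and those of Cdkn1a and Gdf15 were 0.25 and 0.31.

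**Figure D2:**
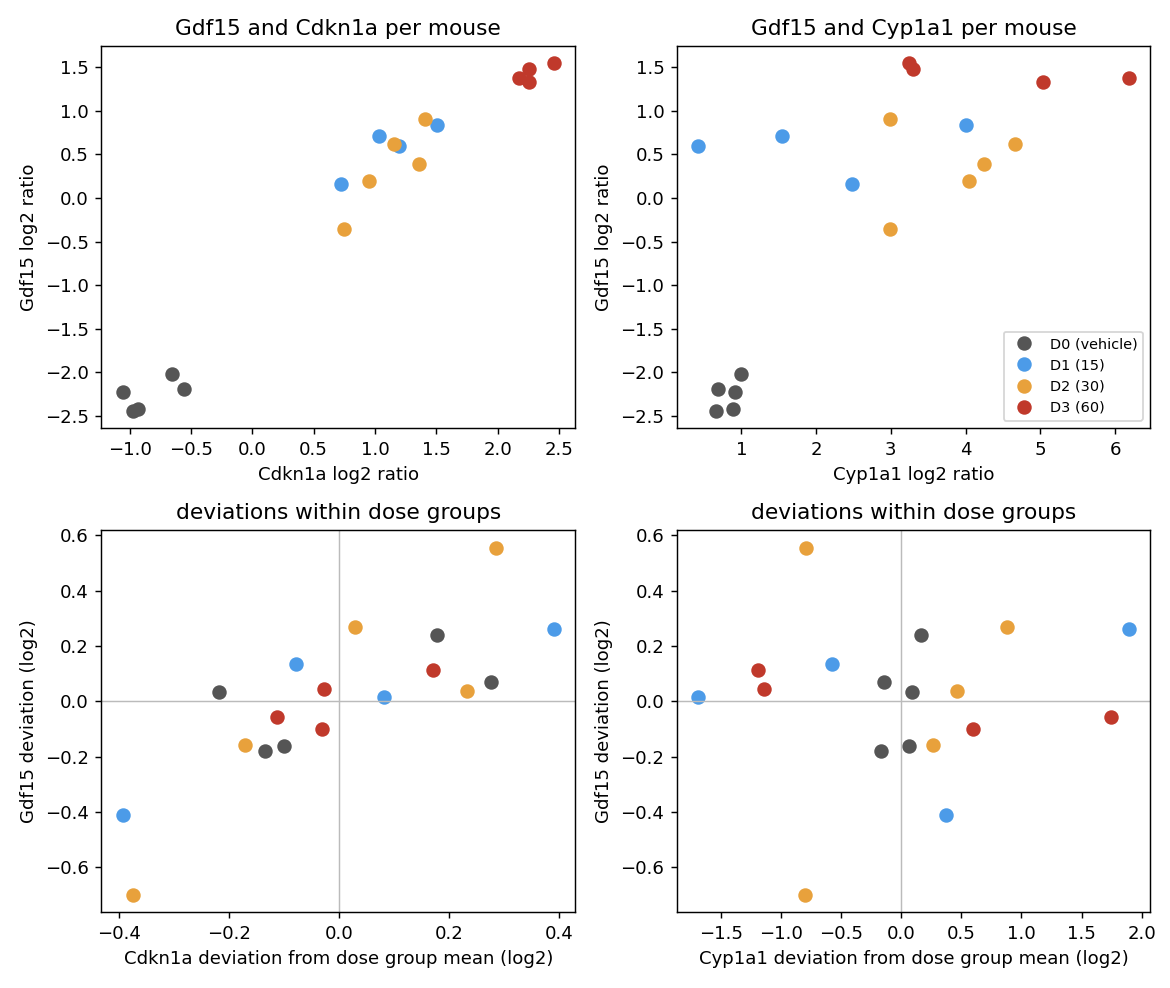
Each point is a mouse (n = 18), coloured by dose group in mg BaP equivalents/kg-day. The upper panels plot the Gdf15 log2 ratio against that of Cdkn1a and of Cyp1a1, and the lower panels plot the deviations from the dose group means. Gdf15 deviated together with Cdkn1a (r = 0.797), while its deviations spread without direction over those of Cyp1a1 (r = 0.0617).

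The dose groups formed separate clusters, so the relation between mice was examined on the deviations of each mouse from its dose group mean. The pair of relations was chosen together with the genes, so both are given as a description with no test. For Gdf15 and Cdkn1a, Pearson's r over 18 mice was 0.797 and Spearman's rho 0.796. Without mice 24 and 21, farthest from the median in Cdkn1a, r was 0.756, and with slide means removed as well it was 0.933. Mouse 23 was the lowest of D2 in both genes, and r without it was 0.75. With the NM_001111099 probe of Cdkn1a, which was examined after the result of the first was seen, r was lower, at 0.52, and rho was 0.441.

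For Gdf15 and Cyp1a1 the values were near 0. Pearson's r was 0.0617 and Spearman's rho 0.0485 over the same 18 mice, and r was -0.0583 without mice 24 and 25. With slide means removed r was -0.0767. The mice highest in Gdf15 in D0 and D1, mice 2 and 24, were also the highest of their groups in Cyp1a1. Those highest in Gdf15 in D2 and D3, mice 28 and 35, were next to the lowest and the lowest of theirs.

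The genes whose ratio over the 18 mice was most like that of Gdf15, among 14753 other gene symbols with the brightest probe of each, were ranked by Pearson's r as a description. Points share their dose groups, slides and reference, and the median r over all symbols was 0.08 with a 95th percentile of 0.70. Cdkn1a was the first (r = 0.982) and Phlda3, a p53 target that restrains AKT, the second (0.981). They were followed by Ces2c (0.969), Trp53inp1 (0.957), Ces2e (0.954), Serp2 (0.950), Ccng1 (0.948), Mocos (0.947), Btbd3 (0.942) and Rnf26 (0.937). Trp53inp1 and Ccng1 are p53 targets, and Ces2c and Ces2e are carboxylesterases of 1 gene cluster whose probes may share signal. Mocos, Btbd3 and Rnf26 kept the order of groups at small differences, of 0.51, 0.57 and 0.43 on the log2 scale at D3. The lowest r belonged to Gata2 (-0.941), Efnb1 (-0.934), Taf7l (-0.921), St6galnac4 (-0.920) and Kitl (-0.911). Gata2 encodes a transcription factor of blood and endothelium and Kitl the ligand of the KIT receptor, and at D3 they lay 0.67 and 0.66 below D0. Cyp1a1 ranked 566 with r = 0.729, below the AHR target Cyp1b1 (0.898) and the AHR repressor gene Ahrr (0.927). Ahrr was well above background in 1 of 5 D0 mice and passed the detection filter through the dosed groups alone. Its r therefore rests on D0 values that were mostly not well above background.

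**Figure D3:**
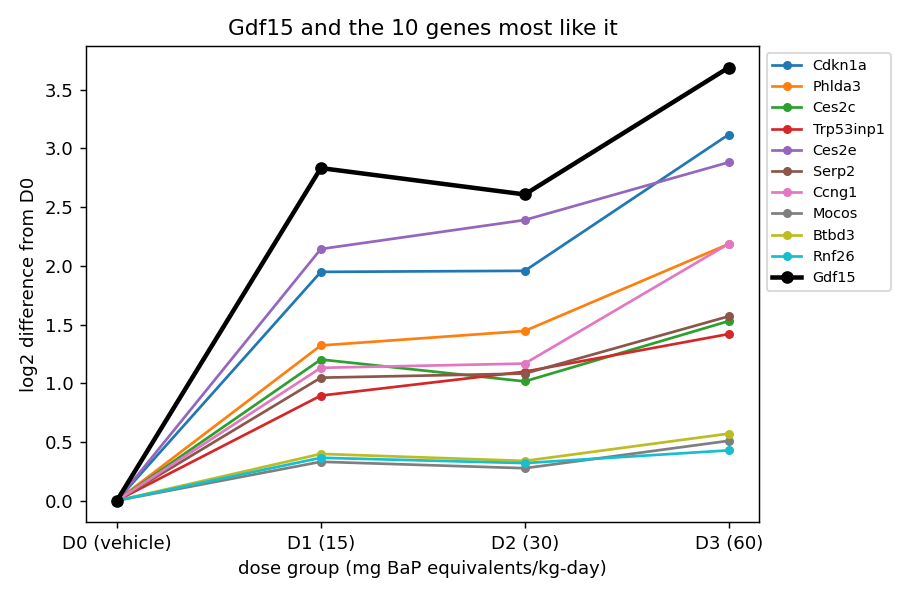
The log2 difference from D0 in each dose group for Gdf15 (thick black line) and the 10 genes with the highest Pearson r to it over 18 mice. All rise from D0 to D1 and are highest at D3. Gdf15 changes most, from 2.83 at D1 to 3.69 at D3, and Mocos, Btbd3 and Rnf26 change by at most 0.57.

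When dose group means were removed, the order of likeness became partly different. Bbc3, which encodes the apoptosis activator PUMA and is a p53 target, had the highest r of within-dose deviations with Gdf15 (0.837), followed by Phlda3 (0.823), Necab3 (0.813), Cdkn1a (0.797) and Borcs6 (0.780). Wbp2 (0.779), Hoxa6 (0.770), Ulk1 (0.757), Brd8 (0.751) and Tada1 (0.751) completed the first 10. The median over all 14753 symbols was 0.0055 and the 95th percentile 0.448. Bbc3 itself was not called at any dose, with a difference of 0.38 ± 0.13 (SE) at D3 (limma adjusted p = 0.0557). Its ratio was -0.22 to 0.15 in the D0 mice and 0.16 to 0.53 in the 4 D3 mice, a gap of 0.01. How many other probes were separated in this way was not counted. Phlda3 was the only one besides Cdkn1a among the first 10 on both measures, and its ratio was 0.02 to 0.19 in D0, 1.27 to 1.66 in D1, 1.31 to 1.77 in D2 and 2.24 to 2.43 in D3. Cyp1a1 ranked 6224.

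Of the p53 target list, 24 of 25 genes were tested, and a gene was called when its limma adjusted p was at most 0.05 with a change of at least 1.5-fold. Of these 24 genes, 6, 9 and 13 rose at D1, D2 and D3 and 0 fell. Of all tested probes, 1.06, 0.624 and 2.43% were called at the 3 doses in either direction, and 0.592, 0.434 and 1.2% were called higher. The list median was 0.39, 0.48 and 0.77 on the log2 scale at the 3 doses, and that of all tested probes was 0.01, 0.00 and 0.00. Several of these genes were picked with their change in these mice known, so the counts are not independent evidence of direction. Without Cdkn1a, which was chosen with Gdf15, they were 5, 8 and 12 of 23. With median centring in place of loess the counts were 3, 4 and 6, all higher. Under it 100, 88.9 and 82.7% of all called probes were higher.

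The called p53 targets at D3 fell under several known functions. Cdkn1a (3.12) and Ccng1 (2.19) act on the cell cycle, and Mdm2 (0.80) encodes the ubiquitin ligase that degrades p53. Phlda3 (2.19), Aen (1.57), Trp53inp1 (1.42), Bax (1.13) and Tnfrsf10b (0.80) are linked to apoptosis, and Zmat3 (1.47) encodes an RNA-binding protein. Plk2 (1.07) encodes a kinase, Rps27l (1.01) a ribosomal protein, Sesn2 (0.92) a stress-induced inhibitor of mTORC1 and Polk (0.73) a lesion bypass polymerase. All 13 lay below Gdf15, which follows from its choice as the gene that changed most with dose. Btg2 (0.07), Sesn1 (0.07), Perp (-0.26) and the death receptor gene Fas (-0.13), also p53 targets, were not called at D3. Eda2r was not well above background in any D0 mouse and was so in 4 of 4 D3 mice, and Rrm2b was not tested. Trp53 itself had differences of -0.24, -0.29 and -0.36 at the 3 doses and was not called (limma adjusted p = 0.322, 0.272 and 0.0817).

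**Figure D4:**
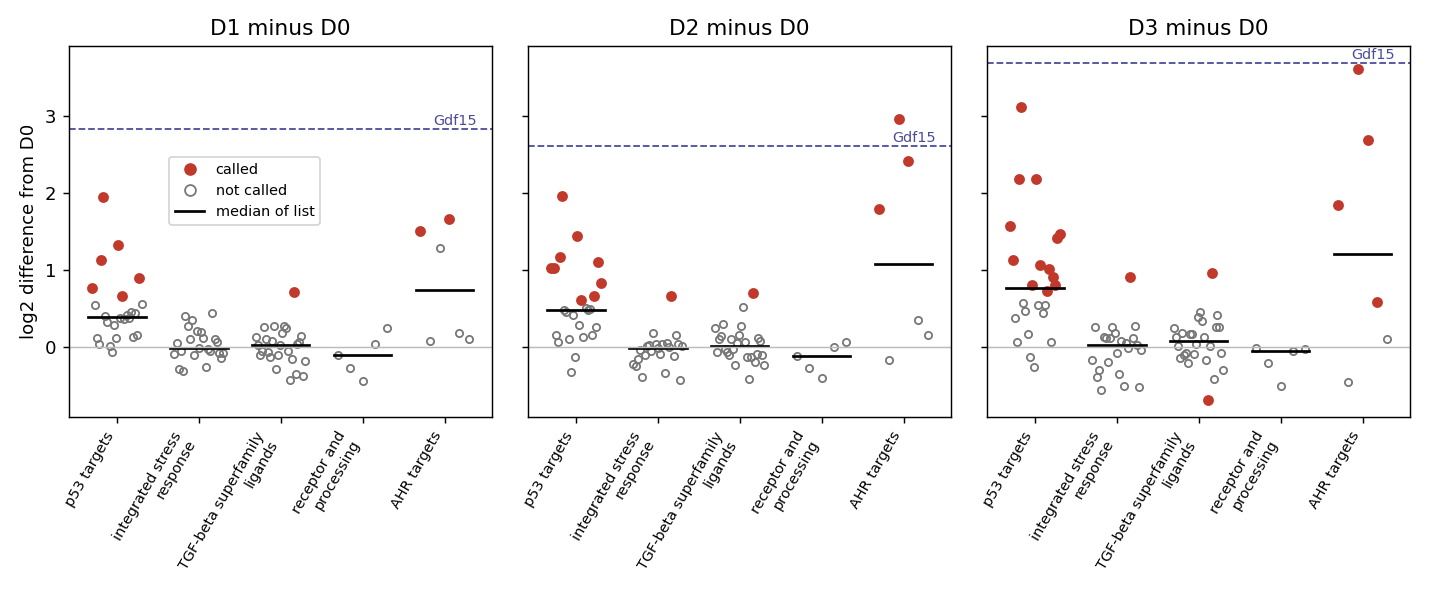
The log2 difference from D0 at D1, D2 and D3 for every tested gene of 5 lists, with called genes filled in red, uncalled genes open, the list median as a black bar and Gdf15 as a dashed line. Cdkn1a and Cyp1a1, which were chosen with Gdf15, are drawn among them. At D3 the called genes other than these are 12 of 23 p53 targets, 3 of 5 AHR targets, 2 of 26 TGF-beta ligands, 1 of 23 integrated stress response genes and 0 of 5 receptor and processing genes. Of all tested probes 2.43% were called. Without Ahrr, which passed the detection filter through the dosed groups alone, the AHR targets are 2 of 4. The integrated stress response gene is Sesn2, which is also among the p53 targets.

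The integrated stress response is another route known to induce Gdf15. Of 25 genes of the integrated stress response, 23 were tested, and limma called 0, 1 and 1 of them at the 3 rising doses. At an unadjusted p under 0.05 there were 6, 5 and 8 of 23, where 19.7, 14.7 and 26.1% of all tested probes were. The 1 called gene was Sesn2 (0.66 at D2 and 0.92 at D3), which is also a p53 target and stands in both lists. The list median was -0.01, -0.02 and 0.03, and with median centring, which moved the median of all tested probes to 0.17, 0.12 and 0.06, it was 0.29, 0.16 and 0.16 with 0 genes called. Atf4, the central transcription factor of the response, had a difference of -0.38 at D3 (limma adjusted p = 0.0168, under 1.5-fold). Ddit3, which encodes CHOP, had 0.11, Atf3 0.26, Trib3 -0.51 and Chac1 0.12, and none of these was called. At an unadjusted p under 0.05, 3, 4 and 6 of the 23 genes were lower than D0 at D1, D2 and D3, and 3, 1 and 2 were higher. Of all tested probes, 9.38, 6.85 and 13% were lower at that threshold. Fgf21, another secreted stress hormone of this response, and the cystine transporter gene Slc7a11 were not well above background in any mouse.

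Likeness to Gdf15 was counted in both lists, leaving out Cdkn1a. Of the other 23 p53 targets, 8 had a within-dose r with Gdf15 above 0.448, the 95th percentile of all symbols, and the median was 0.394. Of the 23 integrated stress response genes 6 did, with a median of 0.214. Ppp1r15a was the highest of them at 0.707, and Atf3 had 0.501. Over the 18 mice with dose included, 14 of the 23 p53 targets and 1 of 23 integrated stress response genes were above the 95th percentile. The latter was Sesn2 (0.903), which stands in both lists. Eda2r, which passed the detection filter through D3 alone, is among the 14, and without it they were 13 of 22. Mice share arrays and slides in all these values, and no test was made of them.

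In the family of Gdf15 itself, 26 of 36 other TGF-beta superfamily ligand genes were tested, and 1, 1 and 2 were called at D1, D2 and D3, where 1.06, 0.624 and 2.43% of all tested probes were. Lefty1, an inhibitor of Nodal signalling, was higher by 0.72, 0.71 and 0.96. Its near-identical paralog Lefty2 was not called (-0.41 at D3), and probes of such pairs can share signal, so the Lefty1 value is uncertain. Inhbb, which encodes the beta B subunit of activins and inhibins, was lower at D3, with a difference of -0.68, in a comparison where 1.22% of all tested probes were called lower. Tgfb1 had a difference of 0.27 and was not called, and Gdf11 was not tested. The family median was 0.03, 0.02 and 0.09. That every other ligand lay below the 3.69 of Gdf15 at D3 follows from the choice of Gdf15 as the gene that changed most.

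The genes needed to process GDF15 or to respond to it gave 0 calls in 5 tested of 6 at D1, D2 and D3 by limma, with 2 of 5 at an unadjusted p under 0.05 at each dose, both lower than D0. Of all tested probes, 9.38, 6.85 and 13% were lower at that threshold. Gfral, the receptor gene, was not well above background in any of the 18 mice, so no lung level can be given. The co-receptor gene Ret (-0.03 at D3) and Furin (-0.01), the gene of a protease of the precursor, had differences near 0. Pcsk5 had the largest difference of the list at D3, -0.51 (limma adjusted p = 0.0352, under 1.5-fold). The protein and its release were not measured.

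Of the 5 tested AHR targets other than Cyp1a1, whose values are a description, 2, 2 and 3 were called at D1, D2 and D3, all higher (0.592, 0.434 and 1.2% of all tested probes). Cyp1b1 was higher by 1.66, 2.42 and 2.68. Ahrr was well above background in 1 of 5 D0 mice and in every treated mouse, so it passed the detection filter through the dosed groups alone. Its differences were 1.504, 1.79 and 1.84 from a D0 mean over all 5 mice, 4 of which were not well above background. Without Ahrr the counts were 1, 1 and 2 of 4. Nqo1, of the antioxidant response, was called at D3 (0.59), just above the 1.5-fold threshold, and Tiparp (0.10) and Aldh3a1 (-0.46) were not called. Within dose groups 0 of the 5 were above the 95th percentile of likeness to Gdf15, and the median r was 0.116. Over the 18 mice with dose included 2 of the 5 were, Cyp1b1 and Ahrr.

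Marker genes of the main lung cell types were present in every mouse, with mean log2 ratios over the list of 5.40 to 6.29 for alveolar type 2 cells and 5.18 to 5.98 for endothelium. Some immune cell markers differed between dose groups. The mean of the 6 neutrophil markers was 1.42 to 2.06 in D0, 1.97 to 2.19 in D1, 1.75 to 2.44 in D2 and 2.12 to 3.43 in D3, and 0, 0 and 5 of the 6 were called, all higher (0.592, 0.434 and 1.2% of all tested probes). The sixth, Csf3r, had differences of -0.37, -0.18 and -0.46, with limma adjusted p = 0.0446, 0.405 and 0.00656, and was not called since each was under 1.5-fold. The mean of the 8 natural killer cell markers was 0.93 to 1.70 in D0, 0.53 to 1.07 in D1, 0.40 to 0.90 in D2 and 0.35 to 0.66 in D3, with 1, 1 and 2 of 8 called, all lower (0.463, 0.19 and 1.22% of all tested probes), led by Gzma (-3.07 at D3). Klre1 and Ncr1 of this list passed the detection filter through D0 alone, and the mean of the other 6 was 1.14 to 1.98, 0.71 to 1.30, 0.53 to 1.12 and 0.47 to 0.86 in D0 to D3, with a within-dose r with Gdf15 of -0.600. The mean of the 9 alveolar macrophage markers was 3.62 to 3.84 in D0, 3.41 to 3.88 in D1, 3.07 to 3.46 in D2 and 3.28 to 3.59 in D3, with 0, 1 and 1 called, lower (0.463, 0.19 and 1.22%). Marco of this list had differences of 0.71, 0.37 and 0.94 and was not called, and its within-dose r with Gdf15 was 0.614. Within dose groups the r with Gdf15 was -0.00051 for the neutrophil mean, -0.577 for the mean of all 8 natural killer cell markers and 0.118 for the alveolar macrophage mean. Cardiac muscle markers ranged from 0.39 to 4.68 over the mice with all 4 groups overlapping, and their within-dose r with Gdf15 was -0.492. The mean of the 3 tested club cell markers ranged from 5.75 to 7.28, also with all groups overlapping and 0 called at any dose, and its within-dose r was -0.499. Of the 5 endothelial markers, Pecam1 alone was called, higher at D1 (0.67) and D3 (0.66), where 0.592 and 1.2% of all tested probes were called higher. The others differed in sign. At D1 and D3, Cdh5 had 0.07 and 0.27, Cldn5 -0.25 and -0.17, Kdr -0.23 and 0.07, and Tek 0.34 and 0.00. The part of these cell types in the Gdf15 ratio was not tested.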

How the data were processed

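Lung RNA of 18 mice was hybridised to 19 two-colour Agilent arrays in red (Cy5) against reference RNA in green (Cy3), with no dye swap. Per the file headers, the deposited scanner files hold spot intensity extracted with Agilent Feature Extraction 11.0.1.1, while the deposited table holds log2 ratios that the authors normalized by LOWESS of median signals without background subtraction. Here median signals were normalized by loess (span 0.3) in limma 3.58.1 (R 4.3.3), leaving out 3671 control spots and outlier spots, and the ratios correlated with the deposited table at r = 0.995 to 0.998. Of 22765 RefSeq identifiers, 21465 matched a gene symbol. Probes well above background in red in at least 4 mice of 1 group were tested in 1 limma model over 4 groups, in place of the study's MAANOVA, and called where the p adjusted by Benjamini and Hochberg was 0.05 or lower with a change of 1.5-fold or more. A gene was given by its brightest probe. Each mouse was 1 replicate.

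Gdf15, Cdkn1a, Cyp1a1 and the gene lists were chosen with earlier results of these data known. Named were called list members, a few fixed genes, the largest change of a list without calls, and the genes most and least like Gdf15. Correlations between mice are given without p-values, since the genes were chosen with results known. The fit was tested on simulated data. Alternatives were another normalization, background correction, scanner or deposited values, the red channel alone, a slide block, mouse 23 in D1, 1 array of mouse 35, no filter, another call rule and each mouse left out. The number of arrays limits the precision.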

Additional observations from a re-analysis of the deposited data

How the results depend on the processing

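The Gdf15 differences of D1, D2 and D3 from D0 kept their direction under every alternative. With the scanner's processed signals they were 3.17, 2.95 and 4.04, and with each mouse left out they ranged from 2.75 to 2.97, 2.47 to 2.78 and 3.64 to 3.75. The D2 minus D1 difference was 0.14 with mouse 23 counted in D1 and ranged from -0.36 to -0.05 with each mouse left out. D3 minus D1 ranged from 0.72 to 0.94 and D3 minus D2 from 0.91 to 1.22. The within-dose r with Cdkn1a ranged from 0.748 to 0.836 with each mouse left out and was 0.52 with the other Cdkn1a probe, an alternative chosen after seeing the data. The r with Cyp1a1, near 0, was -0.0447 after median centring, -0.00538 from the red channel alone, -0.0767 with the slide block, -0.234 with mouse 23 in D1, 0.0857 with normexp, 0.0874 in the deposited table and 0.205 with processed signals, and ranged from -0.134 to 0.226 with each mouse left out.

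Median centring without loess cut the calls of all tested probes from 328, 194 and 754 at D1, D2 and D3 to 12, 18 and 98, of which 100, 88.9 and 82.7% were higher against 56.1, 69.6 and 49.6%, and 20 of 41 calls of list genes were lost. Under it 3, 4 and 6 p53 targets, with Cdkn1a counted, were called at D1, D2 and D3, 0 integrated stress response genes at D2 and D3, and 0, 0 and 1 TGF-beta ligands. With the adjusted p alone 11 p53 targets were called at D1, 1 and 5 integrated stress response genes at D1 and D3, 4 TGF-beta ligands at D3 and 1 receptor or processing gene at D3. Under that rule 1466, 644 and 3832 of all 31090 tested probes were called at D1, D2 and D3. With the red channel alone 1 TGF-beta ligand and 1 receptor or processing gene were called at D3. With each mouse left out, p53 targets called ranged from 6 to 7, 7 to 9 and 13 to 15 at the 3 doses. Integrated stress response genes ranged from 1 to 2 at D3 (2 without D0 mouse 1 or 3 or D3 mouse 32) and TGF-beta ligands from 1 to 2 at D1 (2 without D1 mouse 22) and D2 (2 without D2 mouse 30). Receptor and processing genes ranged from 0 to 1 at D3 (1, Pcsk5, without D3 mouse 31 or 35), and AHR targets, with Cyp1a1 counted, from 3 to 4 at D3 against 4 with all mice. Differences near 0 at D3 changed sign. Ret was 0.17 with processed signals and ranged from -0.11 to 0.047 with each mouse left out. Furin was 0.16 with median centring, 2.3e-05 with the first array of mouse 35, and ranged from -0.041 to 0.024 with each mouse left out. The cause was not tested for any of these.

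No paired analysis was possible because no mouse number is shared between dose groups. The slides, each of which held all 4 groups, entered as a block instead.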
